A study of Danio rerio with 8 samples.

Results

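The comparison described here sets severe prmt6 morphants against control morphants. It rests on 6 of the 8 arrays of the series, 3 per group, chosen by their labels, and on 9301 of 15502 probe sets, those bright enough to be tested, among them those of 6196 of 8793 genes with a symbol. Zebrafish embryos had received 3 nl of antisense morpholino at the 1- or 2-cell stage. Severe embryos carried a prmt6 morpholino (MO) at 0.3 mM, and control embryos a control morpholino (cMO) at the same dose. Strain and sex were not given in the labels. All embryos were collected at 6 hours post fertilization (hpf), when gastrulation starts, and MO embryos had been sorted into normal, mild and severe subtypes. A severe array is therefore a selected class of MO embryos, and the control arrays carry no such selection. Whole-embryo RNA was hybridised to Affymetrix zebrafish arrays, and the mild and normal arrays, 1 each, were left out.

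Protein arginine methyltransferase 6, the product of prmt6, adds methyl groups to arginines of histones and other nuclear proteins. At 6 hpf the zebrafish embryo still holds transcripts laid down in the egg beside those made from its own genome since the mid-blastula transition. It has 3 domains: an outer epithelium called the enveloping layer, the deep cells that form the germ layers, and the yolk syncytial layer next to the yolk. Genes of metabolism, organelles, membrane traffic, splicing and chromatin are active in all of them, so a whole-embryo value is a sum over cells. In such bulk samples fewer cells of a type and less RNA per cell cannot be told apart.

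The prmt6 transcript itself was higher in severe embryos. Its signal, on the log2 scale used throughout, was 9.67, 9.87 and 9.56 in the controls and 11.30, 11.10 and 11.41 in the severe arrays. The groups did not overlap, and the difference was log2 1.57, SE 0.14, limma adjusted p = 0.000133 (2.96-fold). A morpholino acts on its target RNA without having to remove it, so this value does not check the knockdown. It also does not check the labels.

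Arrays within a group ranked probe sets alike, with Spearman correlations over probe sets, which are not independent replicates, of 0.96 to 0.98 among controls and 0.96 to 0.97 among severe arrays. Between groups they were 0.89 to 0.94. Control 3 stood somewhat apart from controls 1 and 2, and severe 3 lay nearest the control mean in 49.5% of the probe sets called. The labels call the replicates biological but do not say whether they came from separate clutches, so p-values rest on the scatter among these samples, which may be technical. Signals under log2 4.96, the level of the negative control probe sets, were treated as background.

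Many transcripts differed between the groups, in both directions. Of 9301 probe sets, 1954 (21%) were higher in severe embryos and 1630 (17.5%) lower at an adjusted p under 0.05 in limma, and 996 and 1007 of these differed at least 2-fold. Counted as genes, with 1 probe set each, 1479 of 6196 rose (23.9%) and 1028 fell (16.6%). The 3 severe and 3 control arrays did not overlap for 55.2% of all genes tested. The balance of rises and falls depended on the scaling. Severe 3 had the brightest hybridisation controls, the bacterial and phage RNAs spiked in at a fixed amount (mean log2 11.39, against 10.69 to 10.98 on the other arrays). With arrays scaled on these controls, 365 genes (5.89%) rose and 1240 (20%) fell, and the median difference of all genes moved from 0.15 to -0.14. Rises made up 54.5% of the calls on probe sets in the deposited scaling and 19.9% in the other. Whether scaling on hybridisation controls follows the RNA content of the embryos was not tested. List medians of the difference between groups are therefore given relative to the median of all genes. List medians on single arrays, taken as differences from the control mean, are not adjusted in this way. For all genes these array medians were 0.02, 0.02 and -0.05 in the controls and 0.18, 0.16 and 0.10 in the severe arrays. A gene named below as risen or fallen had no overlap between groups, and it kept its call under this second scaling (called spike-in scaling below) unless the text says otherwise. With any 1 array left out, between 1021 and 1806 genes rose (16.5% to 29.1%) and between 815 and 1149 fell (13.2% to 18.5%). With arrays 1 and 2 of each group only, 31.4% rose and 20.1% fell. List counts in these settings moved beside these shares over all genes. The largest counts came without severe 3. A list count with spike-in scaling is to be read beside 5.89% higher and 20% lower over all genes. The shares of the deposited scaling do not apply to it.

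The markers of all 3 embryonic domains were present in controls and most were lower in severe embryos. Of 30 enveloping layer genes on the array, 26 were above background on all 3 controls and 16 on all 3 severe arrays, and their summed linear signal was 63577 to 84860 in controls and 18010 to 25570 in severe embryos. Of its 25 tested genes 18 fell (72%, beside 16.6% of all genes) and 2 rose (8%, beside 23.9%). Keratin, annexin and plakin genes were among the falls. The yolk syncytial layer list summed to 20966 to 34349 in controls and to 5888 to 11598 in severe embryos. Its brightest members in controls were apoeb, apoc1 and afp4. Of its 24 genes on the array only 10 were bright enough to test, of which 8 fell (80%) and 1 rose (10%). The deep cell list holds genes of the germ ring and shield but also ectodermal genes, such as foxi1 and tfap2c. Its sums were 51573 to 61348 in controls and 19634 to 29496 in severe embryos. Its brightest member in controls was sox3. Of its 28 tested genes 18 fell (64.3%) and 2 rose (7.14%). The rises numbered 1 without any 1 of control 1, control 2, severe 2 or severe 3. Markers of later tissues were largely absent: of 29 blood, muscle and neuron genes, 5 were bright enough to test and 12 lay under background on all 6 arrays, among them gata1a, myod1 and neurod1. The summed signal of these 29 was 2649 to 3434 in controls and 602 to 872 in severe embryos. Most of the control sum came from lcp1, at 10.90, 10.93 and 11.41 in the controls, where no other of the 29 exceeded 7.07. The 2 that fell were lcp1 (log2 -5.55, above background in 2 of 3 severe arrays) and stmn2a (log2 -1.73). No listed marker read 0 on all arrays. These layer differences stood beside every gene group below, and their part in those results was not tested.

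Not all listed enveloping layer genes fell with the keratins. The transcription factor gene klf2a rose by 1.73 (limma adjusted p = 0.00281) and the disulfide isomerase family gene agr2 by 1.45 (limma adjusted p = 0.00734, above background on 2 of 3 controls). In contrast grhl1, a grainyhead-like transcription factor gene of epithelia, fell by 3.19 (above background in 2 of 3 severe arrays). In the yolk syncytial layer, gata5 and hnf4a, which encode transcription factors of endoderm and gut, fell by 2.09 and 1.81. The riser of that list was the marker mxtx2 (log2 1.71). It read 8.87, 9.05 and 8.75 in the controls and 10.11, 10.58 and 11.11 in the severe arrays. Among deep cell genes foxi1, a forkhead gene of ventral ectoderm, rose by 1.35. The ectodermal transcription factor gene tfap2c fell by 2.31, and the posterior homeobox gene cdx4 fell from 8.58, 8.79 and 10.73 in the controls to 5.06, 5.12 and 4.62 in the severe arrays (limma adjusted p = 0.000349), which put 2 of the 3 severe arrays above background.

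Among genes above background on all 6 arrays, those with the largest differences came from many functions. This rule left out larger falls in layer genes, among them apoc2 of the yolk syncytial list and krt97 of the enveloping layer list. They differed by log2 -7.70 and -7.13. The severe arrays were all under background for apoc2, and severe 3 was for krt97 (1.92), so these sizes are uncertain. The 15 largest rises above background were led by hsp70.3 and gadd45aa and held several transcripts best known from eggs. Among the others were btr16, a member of the bloodthirsty-related TRIM family, pgp, a phosphoglycolate phosphatase, uckl1b, a uridine-cytidine kinase homologue, and svila, a supervillin that links membranes to actin. The btr16 signal was 6.47, 6.47 and 6.37 in the controls and 9.05, 8.93 and 8.83 in the severe arrays (log2 2.50, SE 0.20, limma adjusted p = 8.92e-05), so both groups were tight and far apart. Their replicates were looser for pgp, at 6.97, 6.75 and 5.85 in the controls and 9.52, 9.10 and 8.28 in the severe arrays (log2 2.44, SE 0.39, limma adjusted p = 0.0015), and for uckl1b, at 6.88, 6.46 and 5.34 in the controls and 9.15, 8.85 and 7.64 in the severe arrays (log2 2.32, SE 0.48, limma adjusted p = 0.00548). In both, array 3 of each group was the lowest. The svila values were 8.19, 8.19 and 7.48 in the controls and 10.55, 10.39 and 9.87 in the severe arrays, a rise of 4.98-fold.

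The 15 largest falls above background included several secreted, membrane or actin-associated proteins. The LIM-domain gene znf185 read 10.50, 10.68 and 11.08 in the controls and 5.89, 7.23 and 5.48 in the severe arrays (23.5-fold lower, limma adjusted p = 0.000122). The gene for the small-GTPase-interacting membrane protein Arl6ip5a was at 10.90, 11.01 and 11.16 in the controls and 6.05, 6.74 and 7.16 in the severe arrays (log2 -4.38, SE 0.27, limma adjusted p = 3.71e-05). The nuclease gene dnase1l4.1 fell by 4.34, the membrane proteolipid gene mala.2 by 4.08, the transgelin gene tagln2, whose protein binds actin, by 4.35 and spag1a, a dynein-assembly factor gene, by 4.02. Severe 2 was the highest severe array for znf185, dnase1l4.1, mala.2, tagln2 and spag1a, and still far below every control. The largest falls of the 15 were afp4 (-5.77) and apoc1 (-4.56), both on the yolk syncytial layer list. From the enveloping layer list came capn9 (-4.41) and anxa1a (-3.99). The other large falls, in ctsll, hmgn6, gfus.2, fut9b.1 and fbp1b, are described with their pathways.

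**Figure D1:**
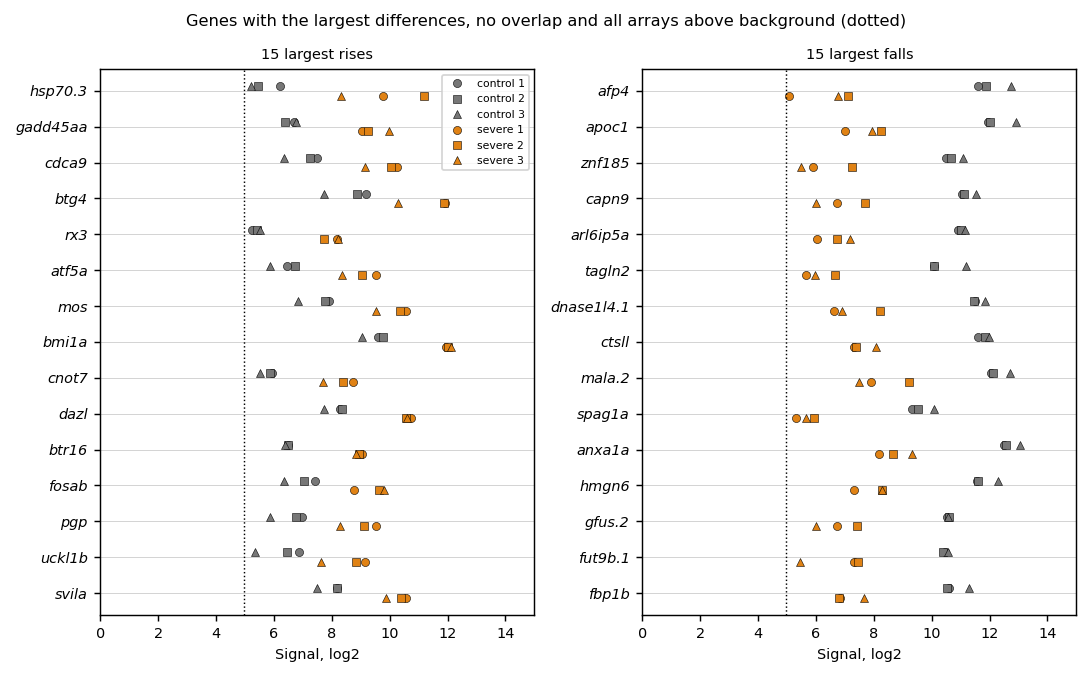
Signal (log2) of the 15 genes with the largest rises and the 15 with the largest falls among genes called, with no overlap of arrays and all 6 arrays above background. Each symbol is 1 array, grey for control and orange for severe, and the dotted line is the background at log2 4.96. For hsp70.3 the severe arrays spread from 8.30 to 11.20, while for btr16 they lay within 8.83 to 9.05.

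Enzymes of sugar metabolism changed in both directions. Of 42 glycolysis and gluconeogenesis genes on the array 27 were tested, and 10 rose (23.9% of all genes did) and 6 fell (16.6% of all genes). The list median lay 0.27 above that of all genes. Phosphoglycerate kinase pgk1, which makes ATP, read 8.65, 8.50 and 7.79 in the controls and 10.70, 10.56 and 9.69 in the severe arrays (log2 2.00, SE 0.31, limma adjusted p = 0.00132), so that no control reached the lowest severe array. The gapdh signal, of the enzyme just before it, was 12.38, 12.26 and 12.43 in the controls and 13.05, 13.02 and 13.70 in the severe arrays (log2 0.90, SE 0.18, limma adjusted p = 0.00501). Glucose-6-phosphate isomerase gpia (0.89), triosephosphate isomerase tpi1a (1.0), phosphoglycerate mutase pgam1a (0.88) and pyruvate kinase pkma (0.89) also passed as higher. These 4 calls were lost with spike-in scaling (limma adjusted p = 0.109, 0.179, 0.226 and 0.167), under which 2 of the list rose and 6 fell.

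The falls reached larger sizes. Fructose-1,6-bisphosphatase fbp1b, a key enzyme of gluconeogenesis, was at 10.59, 10.54 and 11.29 in the controls and 6.82, 6.78 and 7.65 in the severe arrays (13.2-fold lower; log2 -3.72, SE 0.29, limma adjusted p = 7.44e-05). Hexokinase hk1, the entry step of glycolysis, fell from 7.64, 7.46 and 8.11 in the controls to 3.31, 5.62 and 3.61 in the severe arrays, with 1 of 3 severe arrays above background (log2 -3.55, SE 0.56, limma adjusted p = 0.00139). A second hk1 probe set differed by -3.06 (limma adjusted p = 0.00121). Enzymes of the pfkfb family make and remove fructose-2,6-bisphosphate, a regulator of the glycolytic rate. The pfkfb4b gene read 11.68, 11.56 and 11.74 in the controls and 9.98, 10.14 and 10.01 in the severe arrays (log2 -1.62, SE 0.12, limma adjusted p = 6.21e-05) and pfkfb3 fell by 1.88. Another member, pfkfb1, was 0.62 higher, a call lost with spike-in scaling (limma adjusted p = 0.407), without control 1 (0.0554) and without severe 1 (0.0583). Mitochondrial phosphoenolpyruvate carboxykinase pck2 lay under background on all severe arrays, at least 5.65-fold lower (limma adjusted p = 0.00549).

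Around the citric acid cycle, the enzyme shared by several dehydrogenases fell steeply while single cycle enzymes rose. The dihydrolipoamide dehydrogenase gene dldh, the common subunit of pyruvate, 2-oxoglutarate and branched-chain dehydrogenases, read 9.18, 9.35 and 9.85 in the controls and 4.33, 5.17 and 3.81 in the severe arrays (log2 -5.03, SE 0.37, limma adjusted p = 6.21e-05), with 1 of 3 severe arrays above background. The pyruvate dehydrogenase subunit pdhb fell by 1.0. Malate dehydrogenase mdh2 rose by 0.88 (limma adjusted p = 0.000913) and fumarase fh by 0.97, the latter without passing on spike-in scaling (limma adjusted p = 0.0741). Of 23 tested genes 7 rose (30.4%, beside 23.9% of all genes) and 3 fell (13%, beside 16.6%). The 7 became 1 with spike-in scaling and 2 to 4 without any 1 of control 1, control 2, control 3, severe 1 or severe 2.

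Respiratory chain genes went both ways, with more falls than rises. Of 88 tested genes 21 fell (23.9%, beside 16.6% of all genes) and 13 rose (14.8%, beside 23.9%). The median was -0.14 against all genes, and with spike-in scaling 22 fell and 3 rose. Complex I, counted apart after the values had been seen, held 12 of the falls, among 38 subunits and assembly genes tested, and 3 of the rises. Its flavoprotein subunit ndufv1, where NADH is oxidised, was at 10.35, 10.56 and 10.49 in the controls and 7.59, 7.25 and 7.13 in the severe arrays (8.85-fold lower; log2 -3.14, SE 0.18, limma adjusted p = 3.71e-05). Subunit ndufs6 was at 10.20, 10.15 and 10.74 in the controls and 7.83, 8.13 and 8.26 in the severe arrays (log2 -2.29, SE 0.21, limma adjusted p = 0.000133), and ndufa5, ndufa2, ndufa3 and ndufv2 fell by 2.25, 1.62, 1.5 and 1.2. The haem A synthesis enzyme gene cox10 fell by 2.52 (above background in 2 of 3 severe arrays) and the ATP synthase subunit gene atp5md by 1.96. On the rising side, the copper chaperone of cytochrome oxidase, cox17, read 10.31, 10.06 and 9.80 in the controls and 11.46, 11.66 and 11.47 in the severe arrays (log2 1.47, SE 0.15, limma adjusted p = 0.000236). The gamma subunit of ATP synthase, atp5f1c, read 10.09, 9.93 and 10.20 in the controls and 11.11, 11.16 and 11.13 in the severe arrays (log2 1.06, SE 0.12, limma adjusted p = 0.000361), and subunit atp5mea rose by 1.02. With arrays 1 and 2 of each group only, 23 of the list rose and 22 fell. Unadjusted, the array medians of the list, -0.03, -0.03 and 0.06 in severe embryos, lay within the range of the controls (-0.10 to 0.20). Relative to the array medians of all genes (0.18, 0.16 and 0.10 in severe embryos), severe 1 and 2 lay below every control and severe 3 did not.

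Mitochondrial ribosome, import and shape genes also held calls in both directions. Of 114 tested, 26 rose (22.8%, beside 23.9% of all genes) and 16 fell (5 and 18 with spike-in scaling). The rises numbered 15 or 16 without control 1, control 2 or severe 1. Large-subunit proteins were found on both sides: mrpl35 rose by 1.49 and mrpl14 by 1.17, while mrpl20, mrpl42, mrpl4, mrpl21 and mrpl1 fell by 2.12, 2.07, 1.97, 1.97 and 1.90. The inner-membrane import receptor gene timm50 rose by 0.98 (limma adjusted p = 0.000574) and chchd3b, a gene of the cristae-organising complex, fell by 2.73 (limma adjusted p = 0.000237, above background in 1 of 3 severe arrays).

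**Figure D2:**
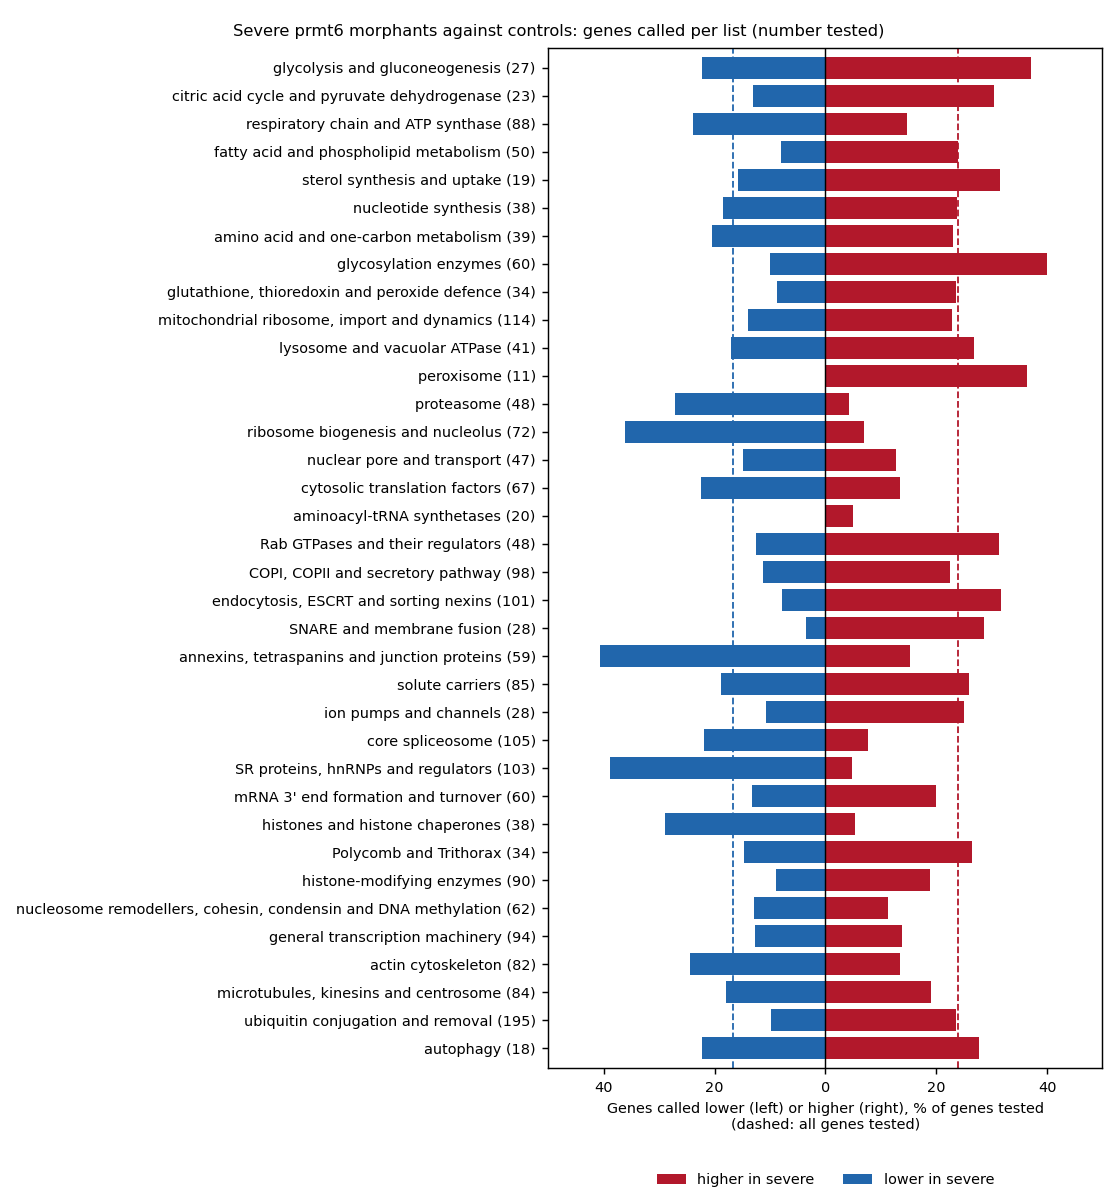
Share of tested genes in each of 36 functional lists that were called higher (right, red) or lower (left, blue) in severe embryos, in percent, with the number tested in brackets. Dashed lines mark the shares over all genes, 23.9% and 16.6%. Falls exceed rises by the widest margins in the lists for splicing regulators, ribosome biogenesis, junction proteins, histones and the proteasome.

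Rises among lipid enzymes were near the share over all genes. Of 50 tested genes of fatty acid and phospholipid metabolism 12 rose (24%, beside 23.9% of all genes) and 4 fell (5 and 4 with spike-in scaling). The rises numbered 21 without severe 3 and 20 with arrays 1 and 2 only, where 29.1% and 31.4% of all genes rose. Medium-chain acyl-CoA dehydrogenase acadm, of mitochondrial fat oxidation, read 11.16, 11.06 and 11.13 in the controls and 12.43, 12.43 and 12.79 in the severe arrays (log2 1.44, SE 0.13, limma adjusted p = 0.000133). The phosphatidate phosphatase lpin2, which makes diacylglycerol, read 6.92, 6.76 and 6.74 in the controls and 9.26, 9.11 and 8.50 in the severe arrays (4.44-fold higher; log2 2.15, SE 0.25, limma adjusted p = 0.00034). The enzyme one step before it, the acyltransferase agpat2 that makes phosphatidate, went the other way, at 9.15, 9.13 and 9.48 in the controls and 5.86, 6.37 and 5.83 in the severe arrays (log2 -3.24, SE 0.24, limma adjusted p = 6.21e-05). Ethanolamine kinase etnk1 fell by 2.70 and the lysophosphatidylcholine acyltransferase lpcat1 rose by 1.19. Among 19 sterol genes 6 rose (31.6%, beside 23.9% of all genes) and 3 fell (15.8%, beside 16.6%). With spike-in scaling 3 rose and 3 fell, and without control 3 or severe 1 the rises numbered 3. Hydroxymethylglutaryl-CoA synthase hmgcs1, near the start of cholesterol synthesis, rose from 9.30, 9.49 and 9.03 in the controls to 10.81, 10.65 and 10.44 in the severe arrays (log2 1.36, SE 0.17, limma adjusted p = 0.000471). The oxysterol-binding protein gene osbpl2b rose by 1.98 and the lipid transfer gene stard7 by 1.58. The endosomal membrane gene stard3nl fell from 9.30, 9.41 and 9.77 in the controls to 5.96, 6.29 and 6.41 in the severe arrays (9.67-fold). The other falls of the sterol list, stard13b and stard14 (-1.99 and -1.62), were caught by the stard prefix.

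In nucleotide synthesis the 2 genes of one enzyme went opposite ways in the deposited scaling. IMP dehydrogenase, the branch to guanine nucleotides, has 2 genes on the array: impdh1b was at 9.41, 9.50 and 9.69 in the controls and 7.35, 7.34 and 7.03 in the severe arrays (log2 -2.29, SE 0.19, limma adjusted p = 9.74e-05), whereas impdh2 was 0.79 higher, without passing on spike-in scaling (limma adjusted p = 0.155). Mitochondrial adenylate kinase ak3 fell from 11.50, 11.55 and 11.71 in the controls to 8.48, 8.92 and 8.75 in the severe arrays (7.29-fold; limma adjusted p = 3.45e-05) and guanylate kinase guk1a by 2.82. The purine salvage gene hprt1l rose by 2.16 and the uridine-cytidine kinase gene uck2a by 1.37. In all, 9 of 38 rose (23.7%, beside 23.9% of all genes) and 7 fell (18.4%, beside 16.6%), 3 and 9 with spike-in scaling. Without control 2 or severe 2 the rises numbered 5.

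Amino acid enzymes divided 9 higher (23.1%, beside 23.9% of all genes) to 8 lower (20.5%, beside 16.6%) of 39 tested. With spike-in scaling 3 rose and 8 fell. The mitochondrial aspartate aminotransferase got2a read 7.68, 7.99 and 7.17 in the controls and 10.08, 9.90 and 9.49 in the severe arrays (log2 2.21, SE 0.25, limma adjusted p = 0.000322). Spermine synthase sms rose from 9.50, 9.66 and 9.37 in the controls to 11.13, 11.03 and 11.26 in the severe arrays (3.09-fold), while the polyamine acetyltransferase sat1a.2, which leads to polyamine breakdown, fell by 1.46. The cystathionine gamma-lyase gene cth fell from 8.95, 8.84 and 8.83 in the controls to 7.22, 7.0 and 7.02 in the severe arrays (log2 -1.79, SE 0.19, limma adjusted p = 0.000257), and its relative cth1 was 1.01 higher without passing on spike-in scaling (limma adjusted p = 0.0919). Arginase arg2 and glutamine synthetase glula fell by 1.38 and 1.06. Of 34 genes of glutathione and peroxide defence 8 rose (23.5%, beside 23.9% of all genes) and 3 fell, 1 and 3 with spike-in scaling. The glutathione transferase gstp1.2 rose by 1.24 and the quinone reductase nqo1 fell by 1.89.

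Among glycosylation enzymes rises outnumbered falls in the deposited scaling. Of 60 tested genes 24 rose (40%, beside 23.9% of all genes) and 6 fell, and the median lay 0.30 above that of all genes. With spike-in scaling 6 rose and 7 fell, where 5.89% and 20% of all genes did. The sialyltransferase st3gal3a read 8.08, 8.24 and 7.81 in the controls and 10.23, 9.83 and 9.42 in the severe arrays (log2 1.78, SE 0.23, limma adjusted p = 0.000603) and the galactosyltransferase b3galt2 7.36, 7.58 and 7.32 in the controls and 9.09, 8.82 and 9.19 in the severe arrays (log2 1.62, SE 0.20, limma adjusted p = 0.000451). The Golgi enzyme mgat2, which branches N-glycans, rose by 1.28. The mannosyltransferase alg1 of the lipid-linked precursor rose by 1.69, the polysialyltransferase family gene st8sia7.1 by 1.49 and the mucin-type initiating enzyme galnt2 by 1.29. By contrast the fucosyltransferase fut9b.1 was at 10.45, 10.40 and 10.57 in the controls and 7.32, 7.44 and 5.44 in the severe arrays (13.4-fold lower; log2 -3.74, SE 0.46, limma adjusted p = 0.00046).

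Values for genes that make its donor, GDP-fucose, are given as a description, since they were picked after the fall of fut9b.1 had been seen. The gene gfus.2, for the last step, was among the 15 largest falls, at 10.53, 10.60 and 10.55 in the controls and 6.74, 7.41 and 6.00 in the severe arrays (14.4-fold lower; log2 -3.84, SE 0.32, limma adjusted p = 9.19e-05). Its relative gfus.1 differed by -0.39, with overlapping groups (limma adjusted p = 0.34). The GDP-mannose dehydratase gene gmds, outside the list, read 9.49, 9.57 and 10.11 in the controls and 7.80, 7.76 and 7.49 in the severe arrays (log2 -2.04, SE 0.22, limma adjusted p = 0.000242). For fut9b.1, gfus.2 and gmds every severe array was below every control, and severe 3 was the lowest. The largest fall of the list was b3gnt5a, an N-acetylglucosaminyltransferase of glycolipids (-5.35, above background in 2 of 3 severe arrays). The dolichol-phosphate-mannose synthase subunit dpm3 fell by 1.60.

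Of 10 tested cathepsin genes, mostly lysosomal proteases, 2 fell and 2 rose (3 and 1 with spike-in scaling). These genes were grouped after their values had been seen. The cathepsin L-like gene ctsll was at 11.61, 11.83 and 11.99 in the controls and 7.30, 7.37 and 8.09 in the severe arrays (18.7-fold lower; log2 -4.22, SE 0.22, limma adjusted p = 3.45e-05), and cathepsin ctsc fell by 1.17, whereas cathepsin Z, ctsz, rose from 8.80, 8.78 and 8.29 in the controls to 10.51, 10.30 and 10.20 in the severe arrays (log2 1.72, SE 0.19, limma adjusted p = 0.000256). The proton pump subunits atp6v0cb and atp6ap1b fell by 1.98 and 2.11, the latter above background in 1 of 3 severe arrays, and the tetraspanin cd63 of late endosomes by 1.49. In total 11 of 41 rose (26.8%, beside 23.9% of all genes) and 7 fell (17.1%, beside 16.6%). With spike-in scaling 1 rose and 8 fell, and without severe 2 or control 3 the rises numbered 6 or 7. Of 11 tested peroxisome genes 4 rose (36.4%, beside 23.9% of all genes) and none fell. All 4, pex3, pex13, abcd3a and gnpat (1.07, 0.85, 1.34 and 0.64), lost the call with spike-in scaling, where limma gave adjusted p = 0.187, 0.234, 0.171 and 0.426. The rises numbered 2 without control 3, severe 1 or severe 2, and 1 gene passed as lower without control 3 or severe 3. The gnpat call was also lost in 10 other settings.

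Most proteasome genes that were called were lower, mainly subunits of the core. Of 48 tested genes 13 fell and 2 rose (14 and 0 with spike-in scaling), and the median lay -0.28 from that of all genes. The 13 were 27.1% of the list, beside 16.6% of all genes. Subunits of the proteolytic barrel made up most falls. The catalytic subunit gene psmb6 read 8.93, 8.94 and 9.74 in the controls and 7.25, 7.27 and 7.25 in the severe arrays (log2 -1.95, SE 0.25, limma adjusted p = 0.000574), and psma2a, psma4, psma1, psmb7 and psmb2 fell by 1.67, 1.29, 1.27, 0.96 and 0.90. The alpha subunit gene psma8, known in mammals from germ cells, fell by 1.18. Both rises, psmd3 and psmd10, were in the regulatory particle or its assembly (0.53 and 0.67). They lost the call with spike-in scaling (limma adjusted p = 0.467 and 0.445) and without control 1, control 2 or severe 2, and psmd10 also without severe 1. Unadjusted, the list median on severe 3, -0.04, lay within the range of the controls, -0.08 to 0.11. Relative to the array medians of all genes (0.10 on severe 3), it lay below every control.

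Ribosome biogenesis was lower on all 3 severe arrays. Of 72 tested genes 26 fell and 5 rose, and 29 and 0 with spike-in scaling, so that 36.1% fell beside 16.6% of all genes. The list median was -0.45 relative to all genes, with array medians of -0.25, -0.30 and -0.30 for severe 1, 2 and 3 beside -0.01 to 0.01 for the controls. The rRNA methyltransferase gene nop2 read 10.30, 10.13 and 10.57 in the controls and 7.02, 7.71 and 7.19 in the severe arrays (8.15-fold lower; log2 -3.03, SE 0.23, limma adjusted p = 6.21e-05). Nucleostemin, gnl3, a nucleolar GTPase of proliferating cells, read 10.08, 10.22 and 10.46 in the controls and 7.87, 8.28 and 8.2 in the severe arrays (log2 -2.14, SE 0.18, limma adjusted p = 9.81e-05), and its relative gnl3l fell by 1.88. The pre-60S factor gene rrp15 fell by 2.11 and the RNA polymerase I subunits polr1b and polr1h by 1.31 and 1.63. None of the 5 rises exceeded that of the RNA exosome subunit exosc7, at 0.77, which did not pass on spike-in scaling (limma adjusted p = 0.169). Another exosome subunit, exosc5, fell by 1.77. The rises numbered 2 or 3 without control 1, control 2 or severe 1, and 8 without severe 3.

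Translation factors showed 15 falls (22.4%, beside 16.6% of all genes) and 9 rises (13.4%, beside 23.9%) among 67 tested. With spike-in scaling 24 fell and 1 rose, and without control 1 the falls numbered 8. The cap-binding factor gene eif4ea read 9.18, 9.14 and 9.46 in the controls and 7.61, 7.41 and 6.75 in the severe arrays (log2 -2.00, SE 0.26, limma adjusted p = 0.000549). Of 14 tested genes of the initiation factor eIF3, 5 fell and 2 rose (7 and 0 with spike-in scaling). Among them eif3d fell by 1.45 and eif3f by 1.21, while eif3ha and eif3hb were 0.71 and 0.72 higher, without passing on spike-in scaling (limma adjusted p = 0.0996 and 0.351) or without control 1 or control 2. The eif3hb call was also lost without any 1 other array. The gene eif2b2, of the guanine exchange factor eIF2B, fell by 1.95 and eef2a.1, an elongation factor gene, by 1.55. The gene pabpn1l, known in mammals as an oocyte poly(A)-binding protein, rose by 1.05. The kinase eif2ak3 (PERK), which restrains initiation, was 1.21 higher and did not pass on spike-in scaling (limma adjusted p = 0.0991). Few aminoacyl-tRNA synthetases were called: 1 of 20 rose and none fell (0 and 2 with spike-in scaling), the riser being eprs1 (0.49, limma adjusted p = 0.439 with that scaling). The rises numbered 2 without control 2 or control 3 and 3 without severe 3.

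Importin alpha genes, whose proteins carry cargo into the nucleus, changed in both directions. The gene kpna7, known in mammals from oocytes and early embryos, read 6.98, 7.15 and 6.49 in the controls and 9.24, 8.38 and 8.21 in the severe arrays (log2 1.74, SE 0.32, limma adjusted p = 0.00297), and kpna6 rose by 1.27. The opposite was seen for kpna3, at 9.24, 9.34 and 9.55 in the controls and 7.38, 7.99 and 7.41 in the severe arrays (log2 -1.79, SE 0.22, limma adjusted p = 0.000472), and for kpna2, which fell by 0.94. The pore scaffold gene nup133 fell by 1.0. Over 47 nuclear pore and transport genes 6 rose (12.8%, beside 23.9% of all genes) and 7 fell (14.9%, beside 16.6%). With spike-in scaling 2 rose and 10 fell. In the deposited scaling the rises numbered 2 or 3 without control 1, 2 or 3 or severe 2, and the falls 4 without control 1.

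**Figure D3:**
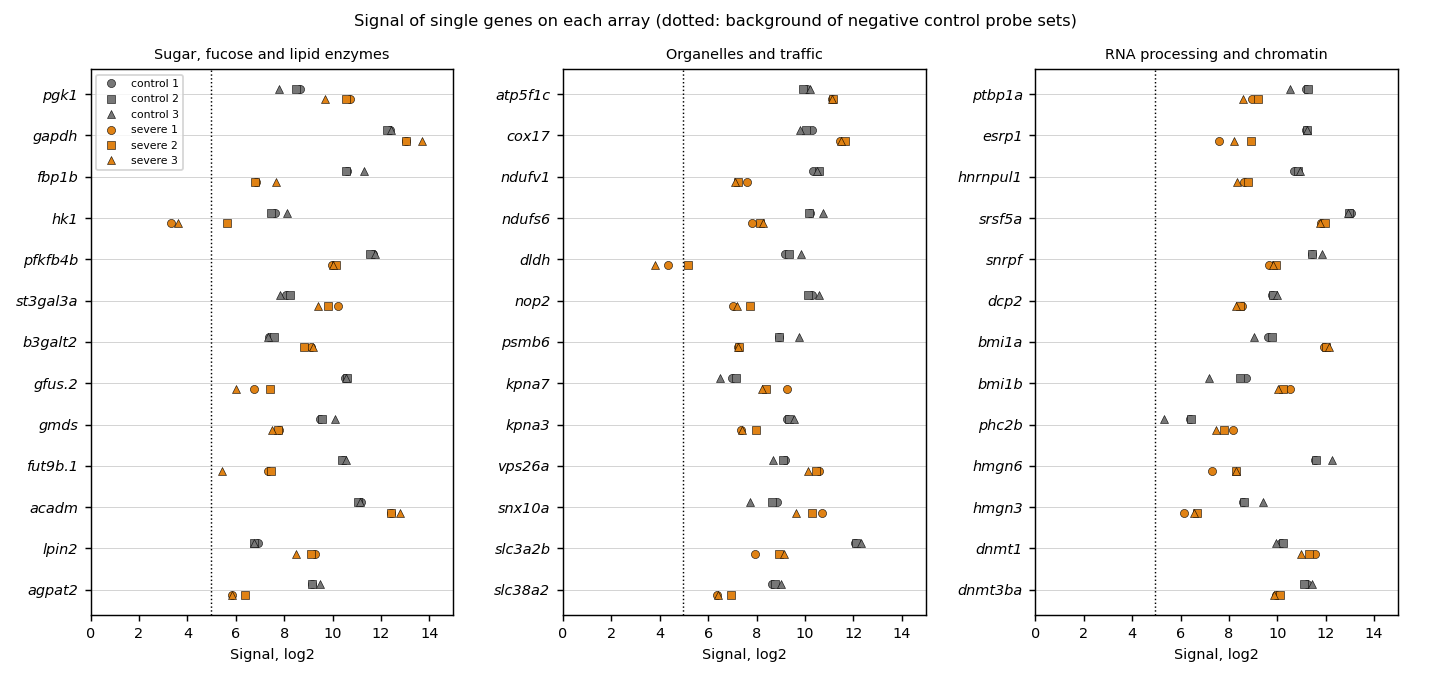
Signal (log2) on each array of 39 genes from the pathways described, in 3 panels. Grey symbols are controls, orange symbols severe arrays, and the dotted line is the background at log2 4.96. The 2 colours do not mix for any gene shown, which follows from the rule that chose them. The severe arrays of hk1 and dldh straddle the background.

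Membrane traffic genes held more rises than falls in the deposited scaling, as all genes did. Rab GTPases and their regulators, the switches that give membranes their identity, had 15 rises (31.3%, beside 23.9% of all genes) and 6 falls among 48 tested (3 and 4 with spike-in scaling). The falls numbered 2 or 3 without any 1 of the controls or severe 2. The GTPase gene rab15 read 6.30, 6.58 and 5.41 in the controls and 8.10, 8.03 and 7.55 in the severe arrays (log2 1.79, SE 0.34, limma adjusted p = 0.00359) and rab20 rose by 1.60. The regulator gene tbc1d19 rose by 1.64 and tbc1d15, known to act on the late-endosomal GTPase Rab7, was under background on all severe arrays and at least 4.19-fold lower, with limma adjusted p = 0.000363. The rab7a gene was itself 0.90 lower, a call lost without control 2 (limma adjusted p = 0.0519).

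In the secretory pathway between the endoplasmic reticulum and the Golgi, 22 of 98 genes rose (22.5%, beside 23.9% of all genes) and 11 fell (4 and 15 with spike-in scaling). The rises numbered 12 or 14 without severe 2 or control 3, and the falls 7 without control 2. The cargo-receptor partner mcfd2 rose by 1.42, the tethering-complex gene trappc13 by 1.43 and the Arf-binding arfip1 by 1.17. Both srp19 and srp9, parts of the signal recognition particle that targets nascent proteins to the endoplasmic reticulum, fell (-1.48 and -1.15), as did ergic3 (-1.2) and arf5 (-0.96). The largest fall was arl6ip5a, described above, and its partner gene arl6ip5b was 1.07 higher, without passing on spike-in scaling (limma adjusted p = 0.107).

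Endocytosis and sorting genes had 32 rises and 8 falls among 101 tested (8 and 9 with spike-in scaling), 31.7% of them rising beside 23.9% of all genes, with a median 0.18 above all genes. The rises numbered 21 without severe 1, where 16.7% of all genes rose. The retromer subunit vps26a, which retrieves receptors from endosomes, read 9.17, 9.11 and 8.69 in the controls and 10.59, 10.47 and 10.11 in the severe arrays (log2 1.4, SE 0.19, limma adjusted p = 0.000705). The sorting nexin snx10a read 8.86, 8.65 and 7.75 in the controls and 10.72, 10.30 and 9.63 in the severe arrays (log2 1.80, SE 0.34, limma adjusted p = 0.0035). The clathrin adaptor gene dab2 rose by 1.49, the WASH-complex subunit washc5 by 1.34, the adaptor subunit ap1g2 by 1.31, the ESCRT-III subunit chmp4c by 1.29 and snx17 by 1.15. The falls included cavin2b of caveolae (-2.15, above background in 2 of 3 severe arrays), the raft protein gene flot2a (-1.83), and the ESCRT subunits vps28 (-1.11) and chmp1b (-1.0). Genes of SNARE proteins, which fuse vesicles with their target, had 8 rises and 1 fall among 28, with 3 and 1 on spike-in scaling. The 8 were 28.6% of the list, beside 23.9% of all genes. The rises numbered 5 without control 2, control 3, severe 1 or severe 2. The Golgi SNARE gosr2 rose by 1.13, the endosomal syntaxin stx8 by 1.31, and stx11a read 8.30, 8.28 and 7.43 in the controls and 10.29, 9.98 and 9.39 in the severe arrays (log2 1.88, SE 0.30, limma adjusted p = 0.00154). The single fall, sec22bb (-0.81), was lost without any 1 of control 1, 2 or 3 or severe 2.

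Most amino acid transporters measured were lower, within a list of solute carriers that went both ways. Of 85 tested solute carriers 22 rose (25.9%, beside 23.9% of all genes) and 16 fell (18.8%, beside 16.6%), 7 and 17 with spike-in scaling. Families slc1, slc3, slc6, slc7, slc36, slc38 and slc43, which carry amino acids, had 12 members tested, of which 8 fell and 2 rose. This grouping was made after the values had been seen. The heavy chain gene slc3a2b, which brings several amino acid exchangers to the membrane, read 12.09, 12.11 and 12.30 in the controls and 7.94, 8.92 and 9.14 in the severe arrays (11.3-fold lower; log2 -3.50, SE 0.28, limma adjusted p = 7.44e-05). One of its partner light chains, slc7a8a, fell by 2.59. The cationic amino acid transporter slc7a3a fell by 2.04, while slc43a2b fell by 2.49 and slc43a1a by 1.48, both known to carry large neutral amino acids. The sodium-coupled glutamine and alanine transporter slc38a2 read 8.64, 8.75 and 9.0 in the controls and 6.38, 6.95 and 6.40 in the severe arrays (log2 -2.22, SE 0.24, limma adjusted p = 0.000275), and slc38a4 and slc38a5b fell by 1.91 and 0.93.

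The rises in these families were slc38a6 and slc7a1b. The first was 1.77 higher and the second 0.49, neither passing on spike-in scaling (limma adjusted p = 0.0549 and 0.529), and slc7a1b also lost its call with quantile normalization, with median centring and without control 1, control 2 or severe 2. Rises that kept the call came from other families. They included the sodium-calcium exchanger gene slc24a4a, at 7.41, 7.25 and 7.16 in the controls and 9.52, 9.63 and 9.53 in the severe arrays (log2 2.29, SE 0.18, limma adjusted p = 7.44e-05). Others were the mitochondrial carriers slc25a14 (2.27, above background on 1 of 3 controls) and slc25a25a (1.93), and the folate transporter slc46a1 (1.41). Among 28 ion pumps and channels 7 rose (25%, beside 23.9% of all genes) and 3 fell (10.7%, beside 16.6%). With spike-in scaling 2 rose and 4 fell, and without severe 2 the rises numbered 4. The list also caught tmem167b and tmem161b, which are not known as channels (0.64 and 1.13, neither passing on spike-in scaling, limma adjusted p = 0.348 and 0.175). Both calls were also lost without severe 2, and that of tmem161b without control 3 or severe 1. The lysosomal chloride exchanger clcn7 rose by 1.30. The water and glycerol channel aqp3a fell by 4.69 (above background in 1 of 3 severe arrays) and the sodium pump subunit atp1b1a by 2.47.

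Many junction genes were lower, while others rose or did not pass. Of 59 tested annexin, tetraspanin and junction genes 24 fell (40.7%, beside 16.6% of all genes) and 9 rose (24 and 2 with spike-in scaling), and the median was -0.47 relative to all genes. The desmosomal membrane protein gene perp read 11.52, 11.58 and 11.88 in the controls and 8.17, 9.09 and 8.61 in the severe arrays (log2 -3.04, SE 0.23, limma adjusted p = 6.21e-05). The plakin genes ppl and evpla, which tie desmosomes to keratin filaments, fell by 3.12 and 3.86, desmoplakin dspa by 2.39, desmocollin-like dsc2l by 2.87 and plakophilin pkp1b by 3.01. For evpla and pkp1b 1 of 3 severe arrays was above background. Of 11 claudin genes, of tight junctions, 5 fell and 3 rose (5 and 1 with spike-in scaling). The gene cldnd rose from 11.61, 11.47 and 11.11 in the controls to 13.23, 13.12 and 12.84 in the severe arrays (log2 1.67, SE 0.16, limma adjusted p = 0.000164). The claudins cldnf and cldnb fell by 2.06 and 1.09. Another claudin, cldng, was 0.98 lower at its brightest probe set. Further cldng probe sets differed by -1.18 and -1.30 (limma adjusted p = 0.00209 and 0.00115). One more was 2.66 higher (limma adjusted p = 0.000557), so its direction is not settled. Of 11 annexin genes 5 fell and 1 rose (5 and 0 with spike-in scaling), with anxa5b lower by 2.36 and anxa11a and anxa11b not passing (0.33 and -0.60). The tetraspanin gene tspan17 rose by 1.71. E-cadherin, cdh1, differed by -0.08 (limma adjusted p = 0.577) and epcam by 0.19 (limma adjusted p = 0.195). The enveloping layer sums above moved with these junction genes. Of the tested junction genes 9 are also enveloping layer markers, 8 of them lower, and of the other 50 genes 16 fell.

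**Figure D4:**
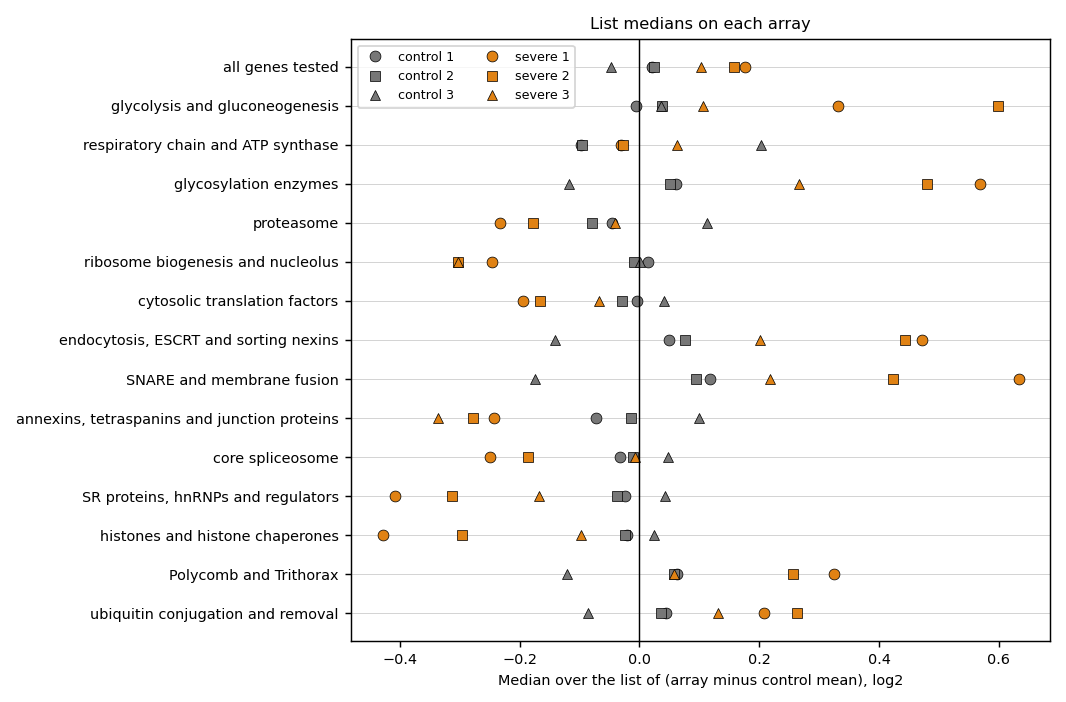
Median over 14 lists, and over all genes tested, of each array's difference from the control mean (log2). Grey symbols are the 3 controls and orange symbols the 3 severe arrays, with a shape for each replicate number. The values are not adjusted for the median of all genes, 0.10 on severe 3. Severe 3 (triangle) lies nearer the controls than severe 1 and 2 for most lists. As drawn, it falls within the range of the controls for the proteasome, core spliceosome, Polycomb and respiratory chain lists. Relative to all genes on each array, it lies below every control for the proteasome and core spliceosome lists.

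Most splicing genes that were called were lower. The spliceosome removes introns, and its core consists of small nuclear ribonucleoproteins (snRNPs) built on a ring of Sm proteins. Of 105 tested core genes 23 fell and 8 rose (43 and 3 with spike-in scaling), with a median -0.29 relative to all genes. The 23 were 21.9% of the list, beside 16.6% of all genes. With spike-in scaling 20% of all genes fell. The falls numbered 14 or 15 without control 1, 2 or 3 or severe 2, where 13.2% to 13.8% of all genes fell. They numbered 35 without severe 3 and 37 with arrays 1 and 2 only, where 18.5% and 20.1% of all genes fell. The Sm protein gene snrpf read 11.45, 11.44 and 11.86 in the controls and 9.65, 9.97 and 9.81 in the severe arrays (log2 -1.78, SE 0.16, limma adjusted p = 0.000114), and snrpg fell by 1.71. The U1 protein gene snrnp70 read 12.74, 12.76 and 12.59 in the controls and 11.62, 11.63 and 11.43 in the severe arrays (log2 -1.13, SE 0.12, limma adjusted p = 0.000217), the minor-spliceosome gene snrnp48 fell by 1.35, and the spliceosomal isomerase gene ppil3 by 2.88. The factors cwc22, crnkl1, lsm6 and sart3 fell by 1.43, 1.2, 1.26 and 1.02. The 3 rises with a call on both scalings, lsm1, lsm14b and lsm11 (2.01, 1.53 and 1.48), share the Lsm name but serve mRNA decay, mRNA storage and histone mRNA processing.

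Splicing regulators held many falls. Of 103 SR protein, hnRNP and related genes, 40 fell and 5 rose, with 38.8% lower beside 16.6% of all genes. With spike-in scaling 63 fell and none rose, where 20% and 5.89% of all genes did. The list median lay -0.44 from that of all genes, and its median on each severe array (-0.41, -0.31 and -0.17) was below that on every control. The repressor gene ptbp1a, which blocks exon inclusion, read 11.17, 11.27 and 10.53 in the controls and 8.94, 9.21 and 8.57 in the severe arrays (log2 -2.08, SE 0.23, limma adjusted p = 0.000292), and its relatives ptbp1b and ptbp2b fell by 1.16 and 2.53. The epithelial splicing regulator gene esrp1 read 11.19, 11.22 and 11.22 in the controls and 7.59, 8.91 and 8.21 in the severe arrays (log2 -2.97, SE 0.29, limma adjusted p = 0.000162). The gene rbm47, also known from epithelia and early head development, was under background on all severe arrays and at least 14.2-fold lower, with limma adjusted p = 0.000154.

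More widely expressed splicing regulators fell as well. The SR-related gene srrm2 fell from 11.01, 10.98 and 11.12 in the controls to 8.79, 9.0 and 8.42 in the severe arrays (log2 -2.30, SE 0.17, limma adjusted p = 6.21e-05), hnrnpul1 from 10.70, 10.85 and 10.95 in the controls to 8.62, 8.80 and 8.35 in the severe arrays (log2 -2.24, SE 0.16, limma adjusted p = 6.21e-05) and hnrnpua by 2.08. The SR proteins srsf5a, srsf1a and srsf2b, activators of exon use, fell by 1.11, 1.02 and 0.99, the kinase clk2a that phosphorylates them by 1.46, and sfpq, hnrnpd and hnrnpl by 0.99, 1.43 and 0.99. The highest rise, rbm33b (1.33), did not pass on spike-in scaling (limma adjusted p = 0.0771). The rises numbered 1 to 3 without control 2, control 3, severe 1 or severe 2.

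Genes of mRNA ends and turnover changed in both directions. Among 60 tested, 12 rose (20%, beside 23.9% of all genes) and 8 fell (4 and 12 with spike-in scaling, and 6 or 7 rises without control 1 or severe 2). Of 11 tested genes of the CCR4-NOT deadenylase complex, grouped after their values had been seen, 4 rose and none fell (1 and 1 with spike-in scaling). Its catalytic gene cnot7 read 5.92, 5.85 and 5.50 in the controls and 8.73, 8.37 and 7.69 in the severe arrays (log2 2.51, SE 0.31, limma adjusted p = 0.000459). At its brightest probe set cnot3a differed by -0.04 (limma adjusted p = 0.846), and at another by -0.70 (limma adjusted p = 0.0254). The deadenylase adaptor btg4 and the tail-binding regulator cpeb1b, both known from eggs, rose by 2.76 and 1.67. The decapping enzyme gene dcp2 read 9.80, 9.83 and 10.00 in the controls and 8.56, 8.44 and 8.30 in the severe arrays (log2 -1.44, SE 0.16, limma adjusted p = 0.000267), and the decapping enhancer edc3 fell by 2.47. The cleavage and polyadenylation genes pcf11 and fip1l1b fell by 1.66 and 1.98. The largest fall on this list, papss2b (-4.70, above background in 1 of 3 severe arrays), came from a symbol match, since it encodes an enzyme that makes the sulfate donor.

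Of 6 tested genes of the HMGN family, which binds nucleosomes and loosens chromatin, 5 fell, and hmgn1a did not pass (-0.36, limma adjusted p = 0.0856). This family was singled out after its values had been seen, so the count is a description only. All 6 were called lower with spike-in scaling. The hmgn6 signal was 11.55, 11.59 and 12.28 in the controls and 7.31, 8.29 and 8.27 in the severe arrays (14.4-fold lower; log2 -3.85, SE 0.30, limma adjusted p = 6.98e-05) and hmgn3 was at 8.6, 8.64 and 9.40 in the controls and 6.16, 6.68 and 6.58 in the severe arrays (log2 -2.41, SE 0.28, limma adjusted p = 0.000366). The genes hmgn2 and hmgn7 fell by 1.36 and 0.77, and hmgn1b was 1.23 lower, a call lost without control 2 (limma adjusted p = 0.0538). The DNA-bending protein gene hmgb3a fell by 2.34, the histone-binding subunit gene rbbp4 by 1.09 and the H2A.Z chaperone gene anp32e by 0.97. The maternal linker histone h1m rose by 0.82 (limma adjusted p = 0.000961). Over 38 histone and histone chaperone genes 11 fell and 2 rose (21 and 1 with spike-in scaling), at a median -0.41 from all genes. The 11 were 29% of the list, beside 16.6% of all genes. The falls numbered 18 without severe 3, and the rises 4 without severe 1 or severe 3.

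In the Polycomb and Trithorax list the share of rises was near that over all genes. Its larger rises included genes of the Polycomb complex PRC1, which compacts and represses chromatin. They were picked with their values seen, and the other PRC1 genes were not counted. The ring-finger subunit bmi1a read 9.60, 9.77 and 9.04 in the controls and 11.94, 12.0 and 12.12 in the severe arrays (log2 2.55, SE 0.19, limma adjusted p = 6.21e-05) and its duplicate bmi1b 8.71, 8.44 and 7.19 in the controls and 10.55, 10.25 and 10.04 in the severe arrays (log2 2.17, SE 0.36, limma adjusted p = 0.00183). The polyhomeotic subunit phc2b rose from 6.41, 6.42 and 5.30 in the controls to 8.18, 7.81 and 7.47 in the severe arrays (3.42-fold), and phc2a was 0.92 higher without passing on spike-in scaling (limma adjusted p = 0.123). The DNA-binding partner yy1a fell by 1.58, and yy1b was 0.71 higher, a call lost with that scaling (limma adjusted p = 0.184). The H3K27 demethylase gene kdm6ba, of the opposing Trithorax side, fell by 1.72 and the methyltransferase subunit rbbp5 by 0.65. Of 34 such genes 9 rose (26.5%, beside 23.9% of all genes) and 5 fell (14.7%, beside 16.6%). With spike-in scaling 3 rose and 8 fell, and without control 1, control 2 or severe 2 the falls numbered 3. With arrays 1 and 2 only 14 rose.

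Other histone-modifying enzymes changed singly. Of 90 tested, 17 rose (18.9%, beside 23.9% of all genes) and 8 fell (8.89%, beside 16.6%). With spike-in scaling 3 rose and 14 fell, and without control 1 the falls numbered 5. With arrays 1 and 2 only 27 rose. The 3 rises that held on both scalings were prmt6 itself, the SET-domain gene setd4, from 7.50, 7.46 and 7.25 in the controls to 9.90, 9.58 and 9.10 in the severe arrays (log2 2.12, SE 0.24, limma adjusted p = 0.000281), and brdt, a bromodomain gene known from male germ cells (1.37), 2 further probe sets of which, at 0.47 and 0.31, did not pass. The acetyltransferase gene kat5a fell by 1.27 and the lysine demethylase gene kdm1a by 0.77. The bromodomain gene brd2a fell by 1.44 at its brightest probe set, whereas another of its probe sets was 2.06 higher (limma adjusted p = 0.000325), so its direction is not settled.

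Of 4 tested DNA methyltransferase genes, grouped after their values had been seen, 1 rose and 2 fell, on both scalings. The maintenance methyltransferase gene dnmt1 rose from 10.16, 10.22 and 9.93 in the controls to 11.55, 11.32 and 10.97 in the severe arrays (log2 1.17, SE 0.17, limma adjusted p = 0.000913). The de novo enzyme gene dnmt3ba fell from 11.21, 11.10 and 11.42 in the controls to 9.96, 10.12 and 9.88 in the severe arrays (log2 -1.26, SE 0.14, limma adjusted p = 0.000267), and dnmt3bb.2 by 0.94, while dnmt3bb.3 did not pass (0.41). The gene mbd3b, of the NuRD repressor complex, fell by 1.14. The topoisomerase gene top2b fell by 2.54 (above background in 2 of 3 severe arrays). Of 62 remodelling, cohesin and DNA methylation genes 7 rose (11.3%, beside 23.9% of all genes) and 8 fell (12.9%, beside 16.6%). With spike-in scaling 1 rose and 16 fell, and without control 2, severe 1 or severe 2 the rises numbered 4. The rise that held on both scalings was dnmt1.

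General transcription genes had 13 rises (13.8%, beside 23.9% of all genes) and 12 falls (12.8%, beside 16.6%) among 94 tested. With spike-in scaling 3 rose and 16 fell. With arrays 1 and 2 only, 22 rose and 21 fell. The oocyte TATA-binding protein gene tbpl2 rose by 2.75, with 2 of 3 controls above background, and gtf3ab, of the 5S rRNA factor TFIIIA, by 1.15. Of 8 tested RNA polymerase II subunit genes 3 fell, polr2eb by 1.28, polr2f by 1.07 and polr2c by 0.60, and polr2i was 0.44 higher without passing on spike-in scaling (limma adjusted p = 0.518) or without any 1 control. The elongation factor gene ell rose from 9.34, 9.23 and 8.88 in the controls to 11.02, 10.76 and 10.60 in the severe arrays (log2 1.64, SE 0.17, limma adjusted p = 0.000248). Its relative ell2 fell by 1.68 at its brightest probe set, while its other probe sets, at 0.21 and -0.31, did not pass.

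Both cytoskeleton lists held calls in both directions. Of 82 actin-list genes 20 fell and 11 rose (26 and 1 with spike-in scaling), 7 of the falls being keratins that the list includes. Without keratins 13 of 75 fell (17.3%, beside 16.6% of all genes) and 11 rose (19 and 1 with spike-in scaling). The rises numbered 6 or 7 without severe 2 or control 2. The Arp2/3 subunit arpc5a, of branched actin, fell by 2.09, profilin pfn1 by 0.98 and calponin cnn2 by 1.64, while the cardiac-type actin gene actc1a rose from 5.55, 5.92 and 5.95 in the controls to 7.68, 8.04 and 8.51 in the severe arrays (log2 2.27, SE 0.28, limma adjusted p = 0.000476). Of 84 microtubule genes 16 rose (19.05%, beside 23.9% of all genes) and 15 fell (17.9%, beside 16.6%), 3 and 16 with spike-in scaling. The rises were 8 to 10 without control 2, control 3, severe 1 or severe 2, where 16.5% to 19.2% of all genes rose. They were 32 without severe 3 and 35 with arrays 1 and 2 only, where 29.1% and 31.4% of all genes rose. Of 8 tested tubulin genes 3 fell and none rose. The genes tubb2b and tuba8l4 fell by 0.96 and 0.68. The augmin subunit haus6, which branches spindle microtubules, rose by 1.82 and the plus-end protein gene mapre1a by 1.38. The kinetochore gene nuf2 fell by 2.22 and the spindle gene ckap2l by 2.96.

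Of 195 tested ubiquitin genes 46 rose (23.6%, beside 23.9% of all genes) and 19 fell (9 and 26 with spike-in scaling). The rises numbered 27, 28 and 30 without severe 1, severe 2 and control 3, and with arrays 1 and 2 only 32 fell. Rises included the F-box genes fbxo25 (1.92) and fbxw2 (1.15), the ligase gene rnf103 of the endoplasmic reticulum (1.82), the SUMO protease gene senp2 (1.49), the NEDD8-activating subunit uba3 (1.35) and usp33, a deubiquitinase (1.33). The falls included the ligase genes rnf183 (-2.28) and rnf144b (-2.11) and the conjugating enzymes ube2e2 (-1.99) and ube2d1b (-1.88). Of 18 autophagy genes 5 rose (27.8%, beside 23.9% of all genes) and 4 fell (22.2%, beside 16.6%). With spike-in scaling 3 rose and 3 fell, and without control 2 or control 3 the falls numbered 2. Within the LC3 family, whose members coat the autophagosome, map1lc3c rose by 1.38 while map1lc3b and map1lc3a fell by 1.16 and 1.08. The conjugation enzyme subunit atg5 rose by 1.38.

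Zebrafish keep many genes in duplicate, and some duplicates went opposite ways. Of 380 tested pairs of symbols that differ only in a final a or b, 22 rose together, 19 fell together and 30 were called in opposite directions. In 170 pairs only 1 gene was called, and in 139 neither. Over all genes tested 23.9% rose and 16.6% fell. Whether the pairs differ in these counts from pairs of unrelated genes was not tested. With spike-in scaling 6 pairs were opposite, and the same 6 were opposite in both. These were cd82a (-3.77) and cd82b (1.67), tetraspanins, ppp1r14aa (1.52) and ppp1r14ab (-2.50), phosphatase inhibitors of contraction, picalma (1.38) and picalmb (-1.5), clathrin assembly proteins, sox19a (-0.53) and sox19b (1.63), early neural transcription factors, etv5a (1.16) and etv5b (-0.95), FGF-responsive transcription factors, and ndrg1a (-0.70) and ndrg1b (1.04). The call of sox19a was lost in 6 settings, among them median centring (limma adjusted p = 0.111), and that of ndrg1a without control 1 or control 3 (0.0643 and 0.0587).

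The cd82a signal was 8.64, 8.67 and 9.02 in the controls and 4.96, 5.61 and 4.44 in the severe arrays (log2 -3.77, SE 0.33, limma adjusted p = 0.000103), and cd82b read 9.47, 9.48 and 8.18 in the controls and 11.06, 10.62 and 10.46 in the severe arrays (log2 1.67, SE 0.34, limma adjusted p = 0.00481). For picalma the values were 9.69, 9.61 and 8.89 in the controls and 10.89, 10.78 and 10.67 in the severe arrays, and for picalmb 6.98, 7.28 and 7.40 in the controls and 5.62, 6.18 and 5.36 in the severe arrays. In these 4 genes the groups stayed apart. The cd82a signal was above background in 2 of 3 severe arrays, and other cd82b probe sets, at 0.50 and 0.59, did not pass. The widest gap of all was between pttg1ipa (-5.03, above background in 1 of 3 severe arrays) and pttg1ipb (0.44), whose rise was lost with spike-in scaling (limma adjusted p = 0.678) and without any 1 array other than severe 3. The symbol rule also pairs genes that are not duplicates of each other: fnta and fntb are the 2 subunits of farnesyltransferase. Opposite pairs numbered 15 to 17 without any 1 array other than severe 3, and 34 without that array.

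**Figure D5:**
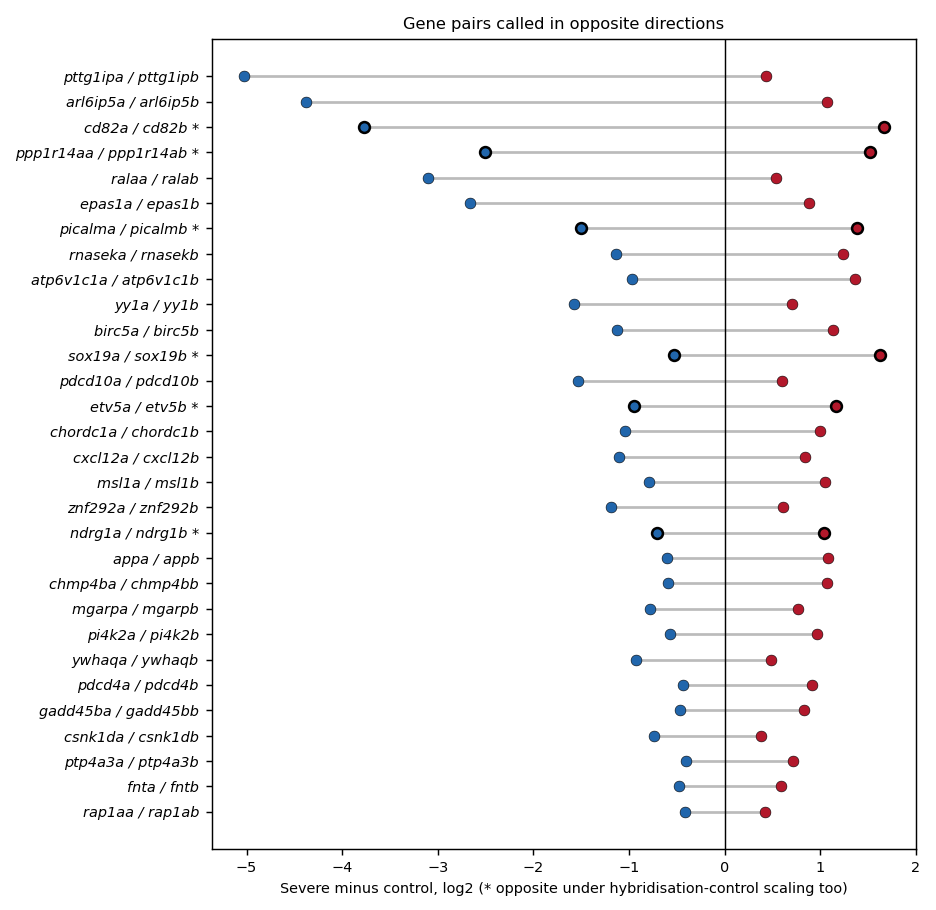
Difference between severe and control embryos (log2) for the 30 pairs of symbols called in opposite directions, ordered by the gap between their members. Red points are called higher, blue points lower, and thick outlines with an asterisk mark the 6 pairs opposite under both scalings. The gaps run from 5.47 for pttg1ipa and pttg1ipb to 0.83 for rap1aa and rap1ab.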

How the data were processed

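Total RNA of whole embryos was measured on Affymetrix zebrafish arrays. The authors deposited log2 MAS5 signals, 1 per probe set and array, per the submitters' processing notes, which give no version. In the values each array shares a trimmed mean linear signal of about 500.1 (2% removed at each end). No detection calls, image data or scan batches were used here, and precision is limited by how few arrays there are. Of 15502 probe sets without controls, 10795 had 1 gene symbol, 135 several and 4572 none. For 10711 the symbol was taken through the Entrez identifier, whether or not it changed. Signals were set against 17 negative control probe sets, whose 95th percentile served as background.

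Severe and control arrays were compared with limma 3.58.1 in R 4.3.3 (lmFit, eBayes with trend) on 9301 probe sets whose mean over the 6 arrays reached the 40th percentile (log2 5.61), with Benjamini-Hochberg adjustment over all of them and a threshold of 0.05. A gene took its probe set of highest mean. A gene under background on all severe arrays has a lower bound as its fold. Spike-in scaling used 18 hybridisation control probe sets. Gene lists were built from symbols and symbol prefixes. Members, lists and the rule for named genes were chosen with earlier results of these data known. The rule takes prmt6, the 15 largest rises and falls without overlap and above background, up to 3 rises and 3 falls of smallest p in each list, members singled out with their values, and opposite pairs with the largest gap. Further members of a list were named after their values were seen. Counts for families within the lists were also grouped after the values were seen. These were complex I, cathepsins, eIF3, annexins, claudins, CCR4-NOT, HMGN, DNA methyltransferases, RNA polymerase II and tubulins. Such counts describe these arrays and do not test a family. Replicate numbers were not taken as pairs, since the labels do not state a pairing. The deviations of same-numbered arrays from their group means correlated at 0.34, -0.07 and 0.35. Those of differently numbered arrays correlated at -0.46 to 0.39. These values do not decide whether same-numbered arrays belong together. On simulated data for this comparison with 9301 probe sets, 8%, 38%, 72% and 94% of 50 probe sets each, changed 1.5-, 2-, 4- and 8-fold, were recovered. Of 115 calls there, 9 were of probe sets left unchanged. Far fewer probe sets were changed in the simulation than the 3584 called here, so these shares do not give the recovery in this comparison. Tables and plots were made with Python 3.11.15, pandas 2.3.3, numpy 2.4.6 and matplotlib 3.10.9.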

Additional observations from a re-analysis of the deposited data

How the results depend on the processing

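None of the comparison's 389 named genes reversed in any of 18 alternatives, and 317 of the 389 stayed on their side of the threshold in each alternative that tested them. These genes were chosen on their values in the same arrays, which favours stable calls. The tally therefore does not measure how well the calls of all genes hold. Scaling on the hybridisation controls cost 58 of the 389 genes their call, and leaving out 1 array between 3 and 23. That scaling left 466 probe sets higher, from 1954, and 6 opposite pairs, from 30. The filter at the 60th percentile, which tests fewer probe sets, gave 1072 lower, from 1630, and 15 opposite pairs. It also turned the medians of the sterol (-0.0325), ubiquitin (-0.0137) and autophagy (0.0638) lists relative to all genes. With 1 array left out, 1335 to 2412 probe sets were higher, 1303 to 1782 lower and 15 to 34 pairs opposite. The highest counts came without severe 3. The cause was not tested. The respiratory chain median ran from -0.1957 to 0.0107 in those fits, above 0 without control 3. With the replicate block, 2545 probe sets were higher and 1889 lower, with 38 opposite pairs, and none of the 389 genes lost its call. Quantile normalization, median centring, a pseudocount of 16, no filter, the background filter, no trend, the robust fit and all 8 arrays kept both counts of probe sets within 1.5 times. Of 40 lists, 17 had a median above that of all genes. Signals near background carry little information on size.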
